A study of Mus musculus with 24 samples.

Results

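Interferon beta (Ifnb1), the 4 subunits of the type I and type II interferon receptors (Ifnar1, Ifnar2, Ifngr1 and Ifngr2) and 5 interferon regulatory factors (Irf1, Irf2, Irf3, Irf5 and Irf8) were followed in bulk RNA-seq of mouse bone marrow-derived macrophages (BMDMs). The members were chosen by name, as the rows of the count table whose Ensembl identifier maps to these symbols in GENCODE M21, and they are 10 of the 22165 genes in that table. All 10 held enough reads to be tested, Ifnb1 through its LPS-treated libraries alone, as it had 0 reads in Unstim. cells. The cells came from WT C57BL/6N mice and from Irg1-/- mice of the same strain background, which lack the enzyme that makes itaconate (gene symbol Acod1). Marrow of mice 8 to 20 weeks old had been grown for 7 days with 20 ng/mL M-CSF, the growth factor that drives macrophage differentiation. Each genotype had an Unstim. group without LPS and 3 groups with 100 ng/ml LPS. The LPS 3h group was exposed for 3 h and is the non-tolerized state, and the LPS 24h group was exposed for 24 h. The LPS 24h->LPS 3h group is the tolerized state: after 24 h with LPS the medium was changed, the cells rested for 1 h, and LPS was added again for 3 h. The LPS 3h cells went through the same medium change and rest without the first LPS, whereas the LPS 24h cells were harvested directly. Each of the 8 groups held 3 independent cultures, and the labels do not say whether cultures shared a mouse. In bulk samples, fewer cells of a type and less RNA per cell cannot be told apart.

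LPS binds TLR4, and the TRIF arm of that receptor activates IRF3 through the kinase TBK1, which together with NF-kB switches on Ifnb1. Secreted interferon beta binds the receptor made of IFNAR1 and IFNAR2, and the kinases JAK1 and TYK2 then activate STAT proteins, which with IRF9 induce interferon-stimulated genes. Interferon gamma uses a separate receptor of IFNGR1 and IFNGR2. Within the IRF family, IRF1 is an interferon-inducible activator, IRF2 competes with IRF1 for the same DNA element, IRF5 takes part in induction of inflammatory cytokines, and IRF8 is a lineage factor of macrophages and dendritic cells. In endotoxin tolerance, macrophages that have met LPS respond less to a second dose at many cytokine genes, and the tolerized and non-tolerized groups ask how this applies to the members here, with and without Irg1.

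Ifnb1 (ENSMUSG00000048806.4) lies on chromosome 4 from 88522025 to 88522774 of GRCm38, on the minus strand. Its promoter is shown because all reads of the gene appeared only in LPS-treated cells. Irf1 is shown beside it because it had the largest rise at LPS 3h among the other members, and Irf8 because it was the only member called lower in tolerized than in LPS 24h cells. The sequences are the 250 bases before the transcription start in RefSeq (GRCm38.p6), 5′ to 3′ on the gene's strand: chr4:88522795-88523044 on the minus strand for Ifnb1, chr11:53769764-53770013 on the plus strand for Irf1 and chr8:120736108-120736357 on the plus strand for Irf8. Capitals mark matches to GGANNTTCC (NF-kB), GAAANNGAA (the IRF or ISRE core), TTCNNNGAA (GAS, the gamma-activated sequence) and TGACNTCA (CRE or ATF), each searched on both strands, and to TATAAA on the gene's strand.
Ifnb1: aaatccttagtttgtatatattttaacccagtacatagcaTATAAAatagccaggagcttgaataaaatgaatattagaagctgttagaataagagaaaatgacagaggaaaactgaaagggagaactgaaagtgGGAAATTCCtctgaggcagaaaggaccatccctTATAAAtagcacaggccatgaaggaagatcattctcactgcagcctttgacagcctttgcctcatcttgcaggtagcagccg
Irf1: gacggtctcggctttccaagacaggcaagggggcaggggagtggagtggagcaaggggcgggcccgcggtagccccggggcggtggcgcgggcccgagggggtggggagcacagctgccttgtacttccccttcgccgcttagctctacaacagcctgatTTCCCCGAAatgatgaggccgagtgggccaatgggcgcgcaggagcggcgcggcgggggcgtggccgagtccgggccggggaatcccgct
Irf8: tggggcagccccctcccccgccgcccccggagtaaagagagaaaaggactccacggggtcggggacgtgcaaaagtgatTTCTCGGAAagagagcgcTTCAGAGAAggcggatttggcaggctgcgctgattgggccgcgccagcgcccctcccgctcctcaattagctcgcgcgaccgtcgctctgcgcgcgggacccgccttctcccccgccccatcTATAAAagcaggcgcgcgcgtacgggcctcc
The Ifnb1 window held an NF-kB match from -115 to -107, which reads as a match on either strand, and TATAAA from -210 and from -82, counted from the start site. The Irf1 window held a GAS match from -90 to -82, and the Irf8 window held GAS matches from -171 and from -153 and TATAAA from -31. No matches overlapped each other. Over 32851 promoter windows of the same length, 3.59% held the NF-kB letters, 7.13% the IRF core, 7.02% GAS, 7.49% the CRE and 7.59% TATAAA. All 10 members had a RefSeq window, and Irf1 and Irf8 had a further window for another start site, without a match. Among the remaining members, Irf2 held the IRF core from -241 and GAS from -224, Ifnar2 held GAS from -214 and Ifngr2 held the NF-kB letters from -75. The windows of Ifnar1, Ifngr1, Irf3 and Irf5 held none of these letters. A match is a description of the letters and does not show that a factor binds there. Only these exact letters and spacings were searched. The lack of a match, as for the IRF core in the Ifnb1 window, therefore does not show that no such factor binds.

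Reads per library counted on genes ranged from 3927378 to 20430359. Correlations of log2 CPM between cultures of a group ranged from 0.902 to 0.975. Levels below are reads scaled to CPM by library sizes with TMM factors (normalized CPM). The reads come from 3′ ends and are not per length, so levels are compared only within a gene. Acod1 was at most 26.4 normalized CPM in every Irg1-/- library and at least 3794 in every LPS-treated WT library, whereas in Unstim. cells it was 5.82 to 11.9 in both genotypes and does not tell them apart. All 6 macrophage markers were detected in each group, with a summed level of 3000.0 to 9650.0 normalized CPM per library. Summed markers of T and NK cells reached at most 0.352 and of B cells at most 1.51 normalized CPM. Stromal markers summed to 65.0 to 146 normalized CPM. The labels carry a prefix with 4 values, MB_1 to MB_4, whose meaning they do not state. All Unstim. libraries carried MB_4, WT cultures 1, 2 and 3 carried MB_1, MB_2 and MB_4 under each LPS treatment, the Irg1-/- LPS libraries carried MB_1, MB_2 or MB_3, and those of LPS 24h were all MB_1. No Irg1-/- library with LPS shared a prefix with Unstim. cells, and no Irg1-/- LPS 24h library shared one with an Irg1-/- LPS 3h library.

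Most members were highest at LPS 3h, and most of those that rose then were lower at LPS 24h and in tolerized cells. In WT cells at LPS 3h against Unstim., Ifnb1, Ifnar1, Ifnar2, Irf1, Irf2, Irf5 and Irf8 rose and Irf3 fell, so that 7 of 10 were higher and 1 was lower, where 15.8% of the 11878 tested genes were higher and 16.3% lower (edgeR's quasi-likelihood test, Benjamini-Hochberg adjusted p under 0.05, as throughout). The same 7 rose in Irg1-/- cells, where Irf3 and Ifngr1 fell, against a background of 17.0% higher and 18.9% lower. The members' median log2 fold change was 1.91 in WT and 1.55 in Irg1-/- cells, and the median over all tested genes was -0.18 and -0.20.

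At LPS 24h fewer members passed the test against Unstim. cells. In WT cells 5 of 10 were higher (Ifnb1, Ifnar1, Ifnar2, Ifngr2 and Irf1) and 0 lower, with 9.25% and 6.98% of all genes called, and the members' median log2 fold change was 0.60 against 0.00 for all genes. In Irg1-/- cells 2 were higher (Ifnar1 and Ifngr2) and 0 lower, with 7.31% and 6.38% of all genes called and medians of 0.37 and 0.00. Set directly against LPS 3h, WT LPS 24h cells had 6 members lower (Ifnb1, Ifnar2, Irf1, Irf2, Irf5 and Irf8) and 0 higher, where 15.5% of genes were lower and 16.8% higher. Irg1-/- cells had the same 6 and Ifnar1 lower and Irf3 higher, where 16.9% of genes were lower and 18.2% higher. The members' medians in this contrast were -1.45 and -1.08, and those of all genes 0.14 and 0.15. Comparisons that share a group, such as the contrasts with LPS 3h, are not independent of each other.

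The second LPS dose was compared with a first dose of the same length. Against LPS 3h, 7 members were lower in WT tolerized cells (Ifnb1, Ifnar1, Ifnar2, Irf1, Irf2, Irf5 and Irf8) and 0 higher, where 13.1% of genes were lower and 12.4% higher. In Irg1-/- cells 5 were lower (Ifnb1, Irf1, Irf2, Irf5 and Irf8) and Irf3 was higher, where 14.1% of genes were lower and 13.1% higher. The members' medians were -1.32 and -1.11, beside 0.13 and 0.12 for all genes. LPS 24h cells were harvested directly, without the medium change and 1 h rest that came before the second dose. Set against them, 1 member was lower in WT tolerized cells (Irf8) and 0 higher, where 1.53% of genes were lower and 2.46% higher. In Irg1-/- cells 0 members passed in either direction by edgeR's quasi-likelihood test, where 1.70% of genes were lower and 3.44% higher, and 1879 genes had an unadjusted p under 0.05. DESeq2's Wald test called 1 member, with a count of all genes within 1.5-fold of the 611 by edgeR's test. The members' medians were -0.08 in WT and 0.28 in Irg1-/- cells.

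Ifnb1, the ligand, had 0 reads in all 6 Unstim. libraries, which at 3 reads per library allows up to 0.565 normalized CPM in the shallowest. At LPS 3h the WT cultures held 5.83, 31.9 and 19.6 normalized CPM (32, 269 and 148 reads) and the Irg1-/- cultures 20.5, 10.0 and 8.97 (199, 63 and 51 reads). Every LPS 3h library thus stood above every other library in the series, and the genotypes overlapped. Against the floor of 3 reads in each Unstim. library, the LPS 3h mean was at least 91.6-fold higher in WT (adjusted p = 1.86e-06), or at least 61.0-fold without its highest culture. In Irg1-/- cells it was at least 33.1-fold higher (adjusted p = 1.34e-05), or at least 23.8-fold without their highest culture. These floors cover counting error only, since the primers described carry no molecular identifier and PCR copies were counted as reads.

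**Figure D1:**
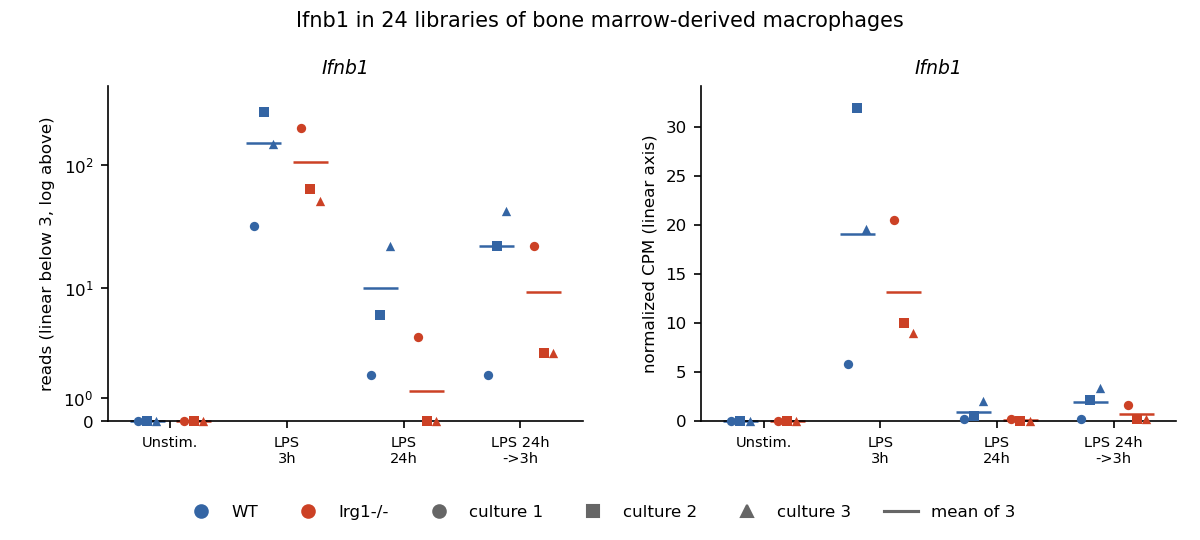
Ifnb1 in each library, as reads on an axis that is linear below 3 and logarithmic above (left) and as normalized CPM on a linear axis (right), by treatment. Points are cultures, horizontal lines the mean of 3 cultures; the LPS 3h libraries hold 32 to 269 reads and the Unstim. libraries 0.

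By LPS 24h little Ifnb1 was left. The WT cultures held 2, 6 and 22 reads (0.24, 0.54 and 2.10 normalized CPM) and the Irg1-/- cultures 4, 0 and 0 reads. The WT mean was at least 4.60-fold above the Unstim. floor (adjusted p = 0.00604), a call lost in a fit of only the compared groups (adjusted p = 0.0612). Without culture 3 of WT LPS 24h the mean was at least 1.87-fold above the floor, with the call lost (adjusted p = 0.0702). Against LPS 3h, Ifnb1 fell in WT with a log2 fold change of -4.28 (SE 0.94, adjusted p = 0.000914), or -5.64 without that culture. It also fell in Irg1-/- cells, with a log2 fold change of -7.18 (SE 1.16, adjusted p = 2.03e-05). Without the Irg1-/- LPS 24h culture 3, which held 0 reads, that value was -6.52. Without culture 1 only libraries with 0 reads remained there, so that the fitted -10.25 depends on the default prior count of the fit and is no bound.

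A second LPS dose after 24 h brought Ifnb1 to 2, 22 and 42 reads in WT (0.23, 2.14 and 3.39 normalized CPM) and to 22, 3 and 3 reads in Irg1-/- cells (1.61, 0.22 and 0.23 normalized CPM). The ranges of tolerized and LPS 24h libraries overlapped in each genotype. Against LPS 24h the log2 fold change was 0.99 in WT (SE 0.90, adjusted p = 0.655) and 2.94 in Irg1-/- cells (SE 1.17, adjusted p = 0.182), and neither difference passed the test. The Irg1-/- difference passed with no filter on low counts (adjusted p = 0.0218), and ranged from 1.36 without culture 1 of the tolerized cells to 5.99 without culture 1 of LPS 24h, neither past the threshold. Against LPS 3h the level in tolerized cells was lower by a log2 fold change of -3.29 in WT (SE 0.88, adjusted p = 0.00672) and of -4.25 in Irg1-/- cells (SE 0.94, adjusted p = 0.0012). Without culture 3 of the WT tolerized cells the value was -3.97, and without culture 1 of the Irg1-/- tolerized cells it was -5.82. Within label prefixes the WT differences of mean log2 CPM were -3.89, -3.79 and -2.47 in MB_1, MB_2 and MB_4 (1 library against 1 in each). These use a prior count of 2, which shrinks differences at few reads, and are not on the scale of the fitted values.

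The receptor genes Ifnar2 (ENSMUSG00000022971.18; 91372783 to 91405589), Ifnar1 (ENSMUSG00000022967.12; 91485238 to 91507441) and Ifngr2 (ENSMUSG00000022965.7; 91547072 to 91565623) lie on the plus strand within 193 kb of chromosome 16, and Ifngr1 (ENSMUSG00000020009.12) lies on chromosome 10 from 19591949 to 19610229. Both type I subunits rose at LPS 3h, while the calls for the type II subunits changed with the culture left out or the setting. Ifnar1, the subunit that binds TYK2, stood at 125, 132 and 95.1 normalized CPM in Unstim. WT cells and at 145, 141 and 171 in Unstim. Irg1-/- cells. At LPS 3h it was 551, 481 and 556 in WT and 612, 532 and 517 in Irg1-/- cells. The LPS 3h libraries did not overlap the Unstim. libraries, with log2 fold changes of 2.17 (SE 0.29, adjusted p = 3.36e-07) and 1.86 (SE 0.28, adjusted p = 4.09e-06).

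Unlike most members, Ifnar1 stayed above Unstim. at LPS 24h in both genotypes. Its levels were 281, 356 and 576 normalized CPM in WT (log2 fold change 1.79, SE 0.28, adjusted p = 1.63e-05) and 306, 259 and 342 in Irg1-/- cells (0.99, SE 0.28, adjusted p = 0.0133). The Irg1-/- call was lost without culture 3 of LPS 24h (adjusted p = 0.0708) or culture 1 or 2 of Unstim. (adjusted p = 0.0526 and 0.0544), with values of 0.89 to 0.97. Against LPS 3h the Irg1-/- LPS 24h level was lower by a log2 fold change of -0.87 (SE 0.28, adjusted p = 0.0144), lost without culture 2 of LPS 24h or culture 1 of LPS 3h (adjusted p = 0.0693 and 0.0507) and with the label prefix as a term (adjusted p = 0.0503). The WT value of -0.39 did not pass (adjusted p = 0.289), and passed without culture 3 of WT LPS 24h, at -0.83. In tolerized cells Ifnar1 was 318, 285 and 354 normalized CPM in WT and 339, 370.1 and 579 in Irg1-/- cells. The WT fall against LPS 3h was at the threshold (log2 fold change -0.73, SE 0.28, adjusted p = 0.0497) and was lost when any of its 6 libraries was left out (adjusted p 0.0549 to 0.14).

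Ifnar2, the subunit that binds JAK1, was 151, 123 and 213 normalized CPM in Unstim. WT cells and 169, 249 and 195 in Unstim. Irg1-/- cells. It rose to 1105, 734 and 725 in WT at LPS 3h (log2 fold change 2.39, SE 0.29, adjusted p = 6.92e-08) and to 663, 537 and 658 in Irg1-/- cells (1.60, SE 0.28, adjusted p = 3.58e-05). The LPS 3h libraries of the genotypes did not overlap, yet neither the genotype difference (-0.46, SE 0.28, adjusted p = 0.94) nor the test of whether LPS 3h raised it unequally in WT and Irg1-/- cells (-0.79, SE 0.39, adjusted p = 0.869) passed the test. By LPS 24h it was 355, 274 and 248 in WT and 386, 274 and 310.1 in Irg1-/- cells, lower than at LPS 3h by log2 fold changes of -1.55 (SE 0.28, adjusted p = 8.01e-05) and -0.94 (SE 0.28, adjusted p = 0.009). The Irg1-/- fall was lost without culture 2 of LPS 24h (-0.83, adjusted p = 0.0508). WT LPS 24h cells were above Unstim. by 0.85 (SE 0.28, adjusted p = 0.0325), which was lost without culture 1 or 2 of either group (0.67 to 0.89, adjusted p 0.0568 to 0.184) and with the label prefix as a term (0.67, adjusted p = 0.128). Tolerized WT cells held 365, 250.0 and 289 normalized CPM, lower than at LPS 3h by a log2 fold change of -1.50 (SE 0.28, adjusted p = 0.000161), and tolerized Irg1-/- cells held 411, 371 and 497 (-0.54, SE 0.28, adjusted p = 0.147, or 0.0409 by DESeq2's Wald test). The difference between the genotypes in this contrast was 0.97 on the log2 scale (SE 0.39, adjusted p = 0.587) and did not pass. Ifnar2 shares 13869 bases with Gm21970 on the same strand, which held 0 reads in every library. How reads in shared bases were counted is not given in the sources used here, so the Ifnar2 values are uncertain to that extent.

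**Figure D2:**
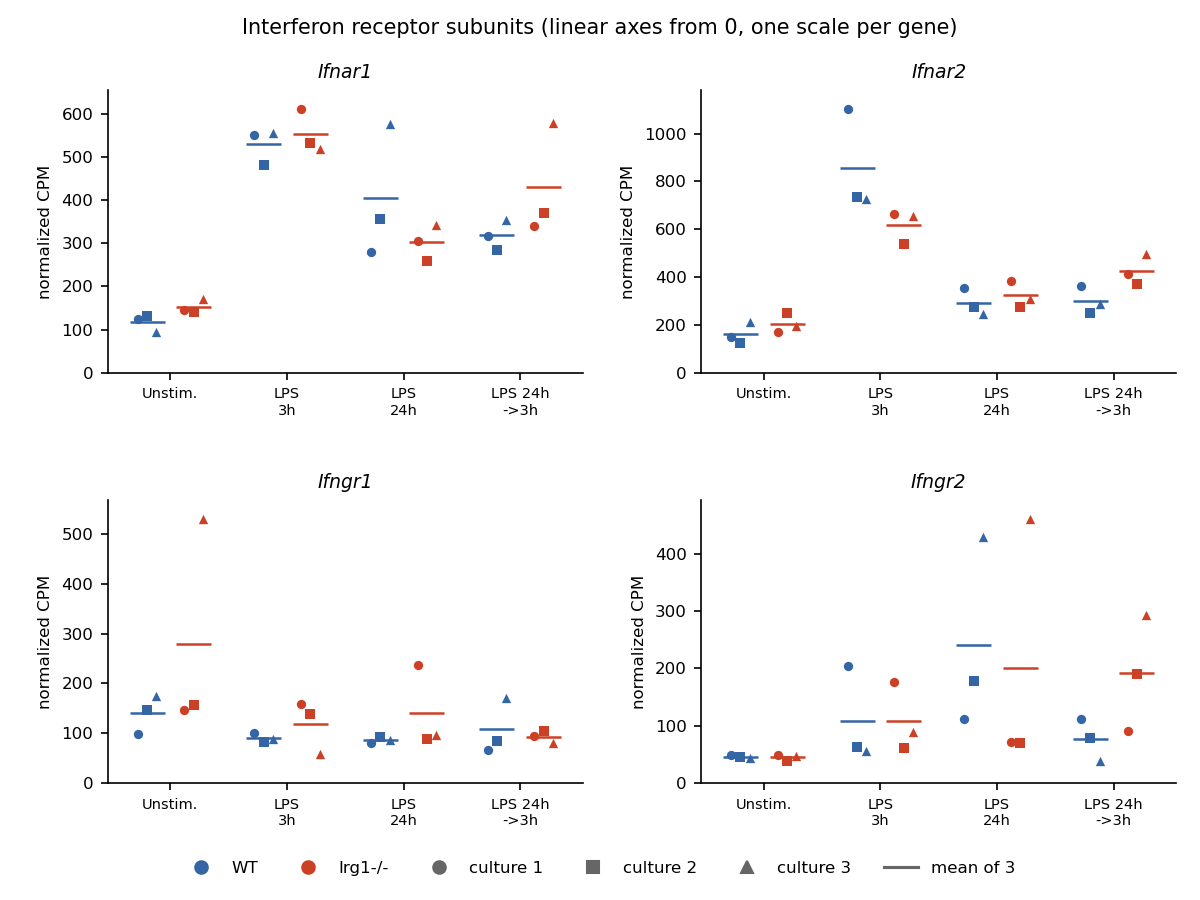
Normalized CPM of the 4 receptor subunits in each library by treatment, on linear axes from 0 with a scale of their own for each gene. Points are cultures and lines the mean of 3 cultures; the means of Ifnar1 and Ifnar2 are highest at LPS 3h within each genotype, while Ifngr1 and Ifngr2 are spread by single cultures such as 531 normalized CPM for Ifngr1 in Irg1-/- Unstim. culture 3.

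The subunits of the interferon gamma receptor had single cultures far from the others of their group, and the calls made for them rested on those cultures. Ifngr1, the ligand-binding subunit, was 99.0, 147 and 174 normalized CPM in Unstim. WT cells and 147, 158 and 531 in Unstim. Irg1-/- cells. At LPS 3h it was 99.5, 82.5 and 88.0 in WT and 159, 139 and 58.9 in Irg1-/- cells. The fall called in Irg1-/- cells (log2 fold change -1.23, SE 0.43, adjusted p = 0.0269) overlapped between the groups and became -0.31 (adjusted p = 0.599) without the high Unstim. culture 3. It was also lost without culture 3 of LPS 3h (-0.90, adjusted p = 0.149) and with the label prefix as a term (-0.43, adjusted p = 0.728). In WT cells the value was -0.64 (SE 0.43, adjusted p = 0.278). Levels at LPS 24h were 80.2, 92.6 and 85.9 in WT and 237, 88.8 and 97.4 in Irg1-/- cells, and in tolerized cells 66.8, 84.6 and 172 in WT and 93.6, 104 and 81.0 in Irg1-/- cells. No other contrast of Ifngr1 passed the test, but LPS 24h against Unstim. in Irg1-/- cells (-0.98, adjusted p = 0.142) passed without culture 1 of LPS 24h (-1.56, adjusted p = 0.0324) and with no filter on low counts (adjusted p = 0.03), and was -0.10 without culture 3 of Unstim.

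Ifngr2, the signalling subunit that recruits JAK2, was even in Unstim. cells, at 49.0, 44.7 and 43.9 normalized CPM in WT and 49.1, 38.5 and 47.7 in Irg1-/- cells. At LPS 3h 1 culture of each genotype stood apart, with 204, 62.5 and 56.7 in WT and 176, 60.7 and 88.7 in Irg1-/- cells, and although no LPS 3h library overlapped the Unstim. libraries, neither difference passed the test (log2 fold changes 1.23 and 1.26, adjusted p = 0.112 and 0.0959). Both passed with no filter on low counts (adjusted p = 0.00179 and 0.00113) and in fits of only the compared groups (adjusted p = 0.0226 and 0.0132). Without culture 1 of LPS 3h they were 0.38 in WT and 0.73 in Irg1-/- cells, not past the threshold. At LPS 24h culture 3 stood apart in both genotypes, with 112, 178 and 430.3 in WT and 70.9, 70.4 and 462 in Irg1-/- cells. LPS 24h was above Unstim. by a log2 fold change of 2.39 in WT (SE 0.61, adjusted p = 0.00536), or 1.61 without that culture (adjusted p = 0.0866). In Irg1-/- cells the value was 2.16 (SE 0.61, adjusted p = 0.0135), or 0.64 without that culture (adjusted p = 0.575). It was also lost without Unstim. culture 2 (2.10, adjusted p = 0.0636) and with the label prefix as a term (1.52, adjusted p = 0.265). In tolerized cells the levels were 111, 78.7 and 39.3 in WT and 91.3, 191 and 294 in Irg1-/- cells. The tolerized libraries of the genotypes overlapped. WT tolerized libraries were all under the WT LPS 24h libraries, with a log2 fold change of -1.65 (SE 0.59, adjusted p = 0.123) that passed with no filter on low counts (adjusted p = 8.98e-05) and was -0.88 without culture 3 of LPS 24h. Irg1-/- against WT tolerized cells gave 1.33 (adjusted p = 0.557), which passed with no filter on low counts (adjusted p = 0.0123), with the groups overlapping. No contrast of tolerized cells passed with the filter.

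Irf1 (ENSMUSG00000018899.16; chromosome 11, 53770014 to 53778374, plus strand) had the largest rise among the members with reads in Unstim. cells. It was 64.8, 64.3 and 56.7 normalized CPM in Unstim. WT cells and 51.3, 59.0 and 57.7 in Unstim. Irg1-/- cells. At LPS 3h it reached 2194, 2042 and 2137 in WT and 1947, 1936 and 1818 in Irg1-/- cells. The cultures of a group lay close together, and the rise was 34.3-fold in WT (log2 fold change 5.10, SE 0.34, adjusted p = 1.48e-13) and 33.9-fold in Irg1-/- cells (5.08, SE 0.34, adjusted p = 2.02e-13). The response differed between the genotypes by -0.02 on the log2 scale, with an interval of 2 SE from -0.82 to 0.79.

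At LPS 24h Irf1 had fallen 11.5-fold from LPS 3h in WT (log2 fold change -3.52, SE 0.31, adjusted p = 4.26e-10) and 24.5-fold in Irg1-/- cells (-4.62, SE 0.33, adjusted p = 3.3e-12). Whether the fall differed between the genotypes was not tested. The WT cultures held 116, 173 and 265 normalized CPM, all above Unstim. (1.58, SE 0.29, adjusted p = 0.000134). The Irg1-/- cultures held 93.9, 76.0 and 62.8 and did not pass against Unstim. (0.47, SE 0.28, adjusted p = 0.324). This gave the only genotype difference called for a member, a log2 difference of -1.25 (SE 0.29, adjusted p = 0.0314) or 2.38-fold lower in Irg1-/- cells, with groups that did not overlap. The call was lost without any Irg1-/- LPS 24h culture or without WT culture 2 or 3 (log2 difference -1.39 to -0.87, adjusted p 0.0617 to 0.364), in a fit of only these groups (-1.22, adjusted p = 0.301) and with the label prefix as a term (-1.03, adjusted p = 0.198). The Irg1-/- libraries were all MB_1, and against the WT library of that prefix, which was the lowest WT culture, the difference was -0.60 (3 libraries against 1). Tolerized cells held 139, 124 and 222 in WT and 92.0, 132 and 99.1 in Irg1-/- cells. Restimulation thus left Irf1 far under LPS 3h, by log2 fold changes of -3.72 in WT (SE 0.31, adjusted p = 7.09e-10) and -4.14 in Irg1-/- cells (SE 0.32, adjusted p = 6.53e-11). Against LPS 24h the changes were -0.19 (SE 0.28, adjusted p = 0.82) and 0.47 (SE 0.28, adjusted p = 0.464). Irf1 shares 907 bases with Gm17334 on the other strand, which held 0 reads, and is uncertain to the extent that reads there were not assigned.

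Irf2 (ENSMUSG00000031627.7; chromosome 8, 46739732 to 46847458, plus strand), which binds the element used by IRF1, rose and fell back with less amplitude than Irf1. Unstim. cells held 141, 170.1 and 149 normalized CPM in WT and 122, 125 and 172 in Irg1-/- cells. LPS 3h brought 378, 481 and 437 in WT and 437, 367 and 379 in Irg1-/- cells, with log2 fold changes of 1.49 (SE 0.30, adjusted p = 0.000232) and 1.50 (SE 0.30, adjusted p = 0.000226). At LPS 24h the groups overlapped with Unstim., at 102, 158 and 195 in WT (-0.02 against Unstim., adjusted p = 0.985) and 133, 123 and 252 in Irg1-/- cells (0.28, adjusted p = 0.629). Tolerized cells held 107, 94.0 and 91.8 in WT and 76.9, 108 and 147 in Irg1-/- cells. Against LPS 3h these were lower by log2 fold changes of -2.14 (SE 0.31, adjusted p = 4.85e-06) and -1.84 (SE 0.31, adjusted p = 3.13e-05), and against LPS 24h by values of -0.63 and -0.62 that did not pass (adjusted p = 0.279 and 0.306).

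Irf8 (ENSMUSG00000041515.9; chromosome 8, 120736358 to 120756694, plus strand) rose at LPS 3h, and in WT tolerized cells it was called lower than at LPS 24h. Unstim. cells held 406, 514 and 257 normalized CPM in WT and 822, 427 and 448 in Irg1-/- cells. At LPS 3h the levels were 1617, 1450.0 and 1926 in WT (log2 fold change 2.08, SE 0.30, adjusted p = 1.97e-06) and 1597, 1253 and 1840.0 in Irg1-/- cells (1.47, SE 0.30, adjusted p = 0.000234). By LPS 24h they were 403, 402 and 356 in WT and 351, 412 and 386 in Irg1-/- cells, a fall of 4.30-fold in WT and 4.08-fold in Irg1-/- cells from LPS 3h. Neither difference from Unstim. passed (log2 fold changes -0.02 and -0.56, adjusted p = 0.978 and 0.233), although every Irg1-/- LPS 24h library was under the Irg1-/- Unstim. libraries.

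In tolerized cells Irf8 stood at 186, 128 and 111 normalized CPM in WT and 172, 223 and 223 in Irg1-/- cells. No tolerized library overlapped an LPS 24h library in either genotype. Against LPS 3h the level was 11.7-fold lower in WT (log2 fold change -3.55, SE 0.32, adjusted p = 2.56e-09) and 7.59-fold lower in Irg1-/- cells (-2.92, SE 0.31, adjusted p = 2.76e-08). Against LPS 24h it was 2.73-fold lower in WT (-1.45, SE 0.30, adjusted p = 0.00312), which was lost in a fit of only these groups (adjusted p = 0.0713). The differences within MB_1, MB_2 and MB_4 were -1.11, -1.64 and -1.68 (1 library against 1 in each). In Irg1-/- cells the log2 fold change was -0.90 (SE 0.29, adjusted p = 0.0781), or -0.78 within MB_1 (2 libraries against 3), and it passed by DESeq2's Wald test (adjusted p = 0.0251) and in a fit of only these groups (adjusted p = 0.0344). The difference between the genotypes in this fall was 0.55 (SE 0.41, adjusted p = 0.808). Dendritic cells also express Irf8. Their 4 markers summed to 2.32 to 9.99 normalized CPM in Unstim. cells, 1.64 to 7.41 at LPS 3h, 0.0 to 0.297 at LPS 24h and 0.0 to 2.73 in tolerized cells, with Xcr1 at 0 in 7 of the 8 groups. The 5 neutrophil markers summed to 13.6 to 26.4 in Unstim. and LPS 3h cells and to 0.461 to 4.49 in the others, but not every marker fell. The part of dendritic cells and neutrophils in the changes of Irf8 was not tested. Irf8 overlaps Gm20388 along its whole length on the same strand, which held 0 reads. How reads in shared bases were counted is not given, so the Irf8 values are uncertain to that extent.

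**Figure D3:**
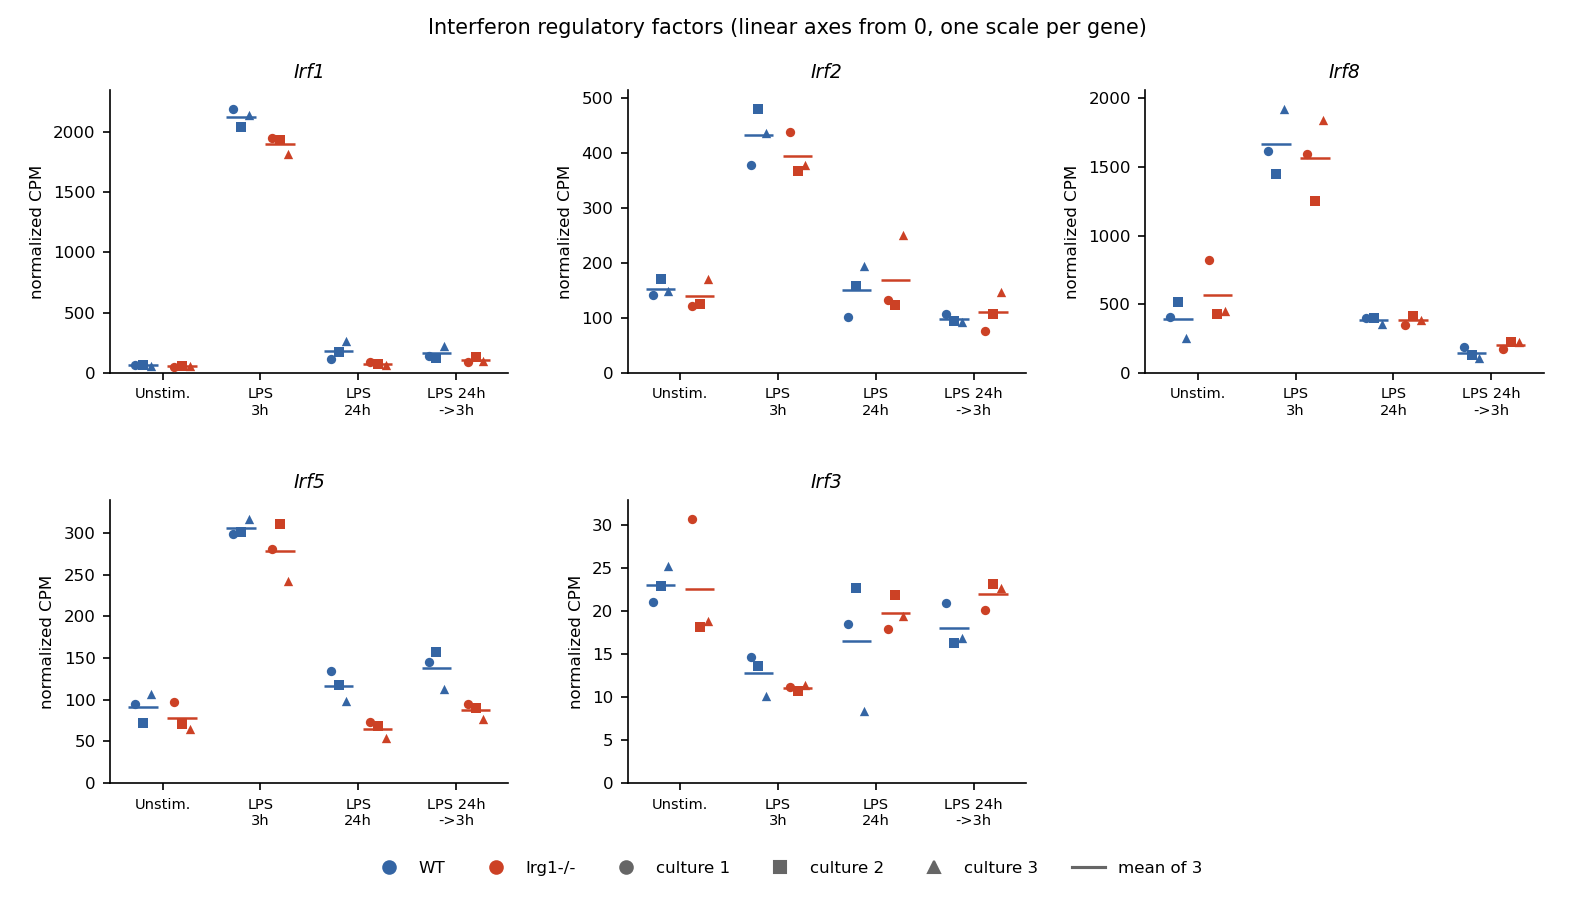
Normalized CPM of Irf1, Irf2, Irf8, Irf5 and Irf3 in each library by treatment, on linear axes from 0 with a scale of their own for each gene. Points are cultures and lines the mean of 3 cultures; Irf1 reaches 1818 to 2194 at LPS 3h, Irf8 is lowest in tolerized cells at 111 to 223, and Irf3 is lowest at LPS 3h apart from 1 WT LPS 24h culture at 8.41.

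Irf5 (ENSMUSG00000029771.12; chromosome 6, 29526625 to 29541871, plus strand) rose at LPS 3h and was lower again at LPS 24h. Unstim. cells held 95.0, 72.1 and 107 normalized CPM in WT and 97.4, 70.3 and 64.9 in Irg1-/- cells. LPS 3h brought 298, 301 and 317 in WT (log2 fold change 1.74, SE 0.26, adjusted p = 3.84e-06) and 281, 310.0 and 243 in Irg1-/- cells (1.84, SE 0.27, adjusted p = 1.62e-06). At LPS 24h the levels were 134, 117 and 98.7 in WT and 73.4, 68.5 and 53.4 in Irg1-/- cells, and in tolerized cells 145, 157 and 113 in WT and 94.3, 90.1 and 76.6 in Irg1-/- cells. Every Irg1-/- library was under every WT library in both of these treatments. Libraries of the genotypes also did not overlap for Ifnar1 in Unstim. cells, Irf1 at LPS 3h and Ifnar2 at LPS 3h and in tolerized cells. None of those differences passed, and how many of all genes separated in this way was not counted. The log2 differences of Irf5, -0.84 at LPS 24h (SE 0.26, adjusted p = 0.157) and -0.67 in tolerized cells (SE 0.26, adjusted p = 0.44), did not pass, and the former passed by DESeq2's Wald test only. Within MB_1 the difference was -1.06 at LPS 24h (3 libraries against 1) and -0.80 in tolerized cells (2 against 1). Irf5 shares 1045 bases with Tnpo3 on the opposite strand, which held 114 to 377 normalized CPM, and as strand use in counting is not given in the sources used here, the Irf5 values are uncertain to that extent.

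Irf3 (ENSMUSG00000003184.14; chromosome 7, 44997648 to 45002848, plus strand), the factor that TBK1 activates upstream of Ifnb1, was the member called lower at LPS 3h in both genotypes. Unstim. cells held 21.1, 22.9 and 25.2 normalized CPM in WT and 30.7, 18.1 and 18.8 in Irg1-/- cells. At LPS 3h it was 14.6, 13.6 and 10.1 in WT (log2 fold change -0.85, SE 0.32, adjusted p = 0.0427) and 11.1, 10.6 and 11.4 in Irg1-/- cells (-1.02, SE 0.33, adjusted p = 0.0151). The LPS 3h libraries did not overlap the Unstim. libraries, but the WT call was lost when any of the 6 libraries was left out (-0.96 to -0.71, adjusted p up to 0.16), and the Irg1-/- call without Unstim. culture 1 (-0.70, adjusted p = 0.128). At LPS 24h the levels were 18.5, 22.6 and 8.41 in WT and 17.9, 21.8 and 19.5 in Irg1-/- cells, and in tolerized cells 20.9, 16.3 and 16.9 in WT and 20.1, 23.1 and 22.6 in Irg1-/- cells. In Irg1-/- cells the rise from LPS 3h to LPS 24h (0.83, SE 0.33, adjusted p = 0.0456) was lost when any library was left out (0.76 to 0.87, adjusted p up to 0.123), with the label prefix as a term (adjusted p = 0.348) and by DESeq2's Wald test (adjusted p = 0.0561). That to tolerized cells (0.99, SE 0.33, adjusted p = 0.0236) was lost without any LPS 3h culture or without tolerized culture 2 or 3 (0.95 to 1.05 over all cultures left out, adjusted p up to 0.0652), and with the label prefix as a term (adjusted p = 0.225). Irf3 shares 1065 bases with Bcl2l12 on the opposite strand (0.36 to 6.5 normalized CPM) and is uncertain to that extent.

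**Figure D4:**
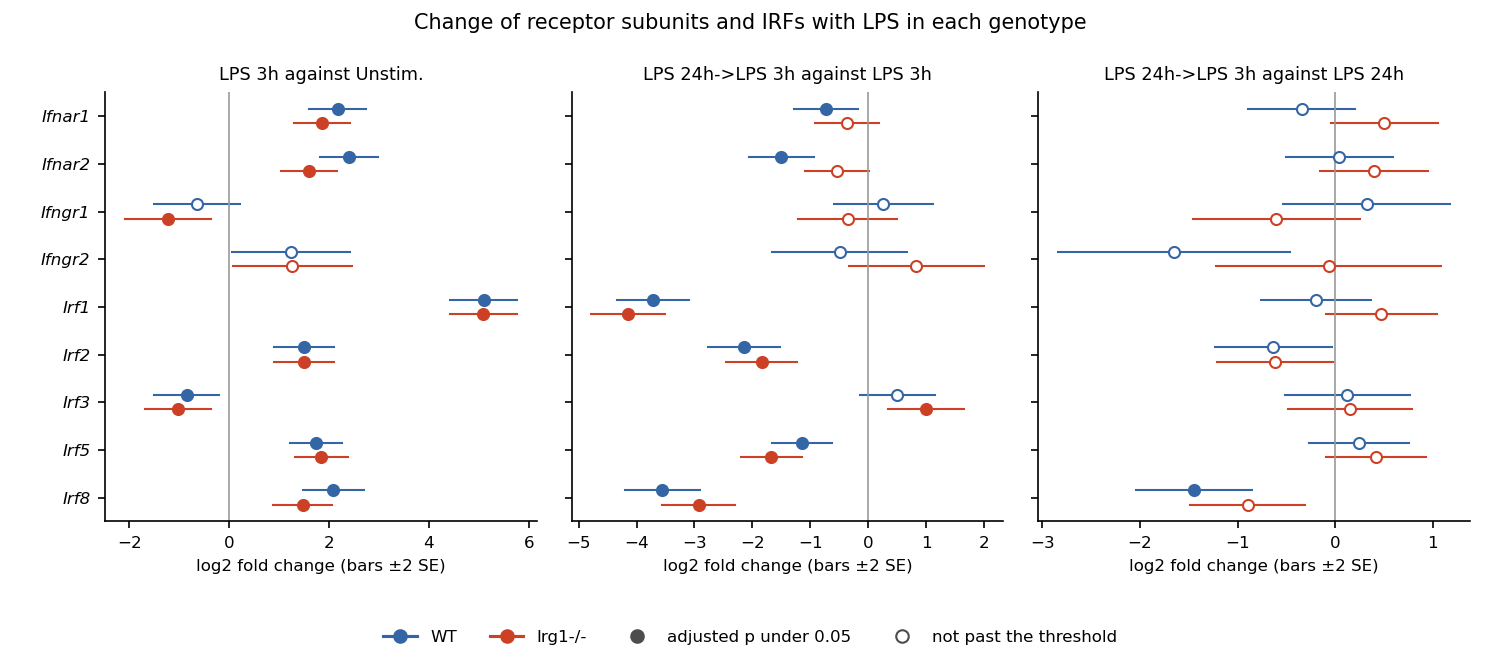
Log2 fold changes of the 9 members other than Ifnb1 in WT and Irg1-/- cells, with bars of 2 SE either side, for LPS 3h against Unstim. (left), tolerized against LPS 3h (middle) and tolerized against LPS 24h (right). Filled points pass an adjusted p of 0.05; at right only Irf8 in WT is filled, at -1.45.

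Between the genotypes, Irf1 at LPS 24h was the only member called under any treatment. In Unstim. cells 0 of 10 members passed the test of Irg1-/- against WT, where 0.0421% of all genes passed (618 genes had an unadjusted p under 0.05 and DESeq2's Wald test called 31), and the log2 differences of the 9 members with reads ran from -0.24 to 0.99, the latter for Ifngr1 with its high Irg1-/- culture. At LPS 3h 0 of 10 passed, where 0.00842% of all genes did (694 at an unadjusted p under 0.05, 8 by DESeq2), with differences from -0.54 for Ifnb1 (SE 0.80) to 0.40. At LPS 24h 1 of 10 passed (Irf1), where 0.598% did, and the other receptor and IRF differences ran from -0.84 to 0.71. Ifnb1 there had the largest difference of a member, -3.44 on the log2 scale (SE 1.17, adjusted p = 0.224), with overlapping groups. It passed with no filter on low counts (adjusted p = 0.0106), and was -2.16 without culture 3 of WT LPS 24h. Without culture 1 of Irg1-/- LPS 24h only libraries with 0 reads remained in that group, so that the fitted -6.46 is no bound. All Irg1-/- LPS 24h libraries were MB_1, and within that prefix the difference of mean log2 CPM for Ifnb1 was -0.81 (3 libraries against 1). With 4, 0 and 0 reads against 2, the prior count of 2 shrinks this value, so it cannot be set against the fitted -3.44. In tolerized cells 0 of 10 passed, where 0.118% did (936 at an unadjusted p under 0.05, 106 by DESeq2), with differences of the receptors and IRFs from -0.67 for Irf5 to 1.33 for Ifngr2 and of -1.50 for Ifnb1 (SE 0.90, adjusted p = 0.751). The intervals of 2 SE reached from -1.19 to 1.86 in Unstim. cells and from -1.18 to 2.51 in tolerized cells over the receptors and IRFs.

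**Figure D5:**
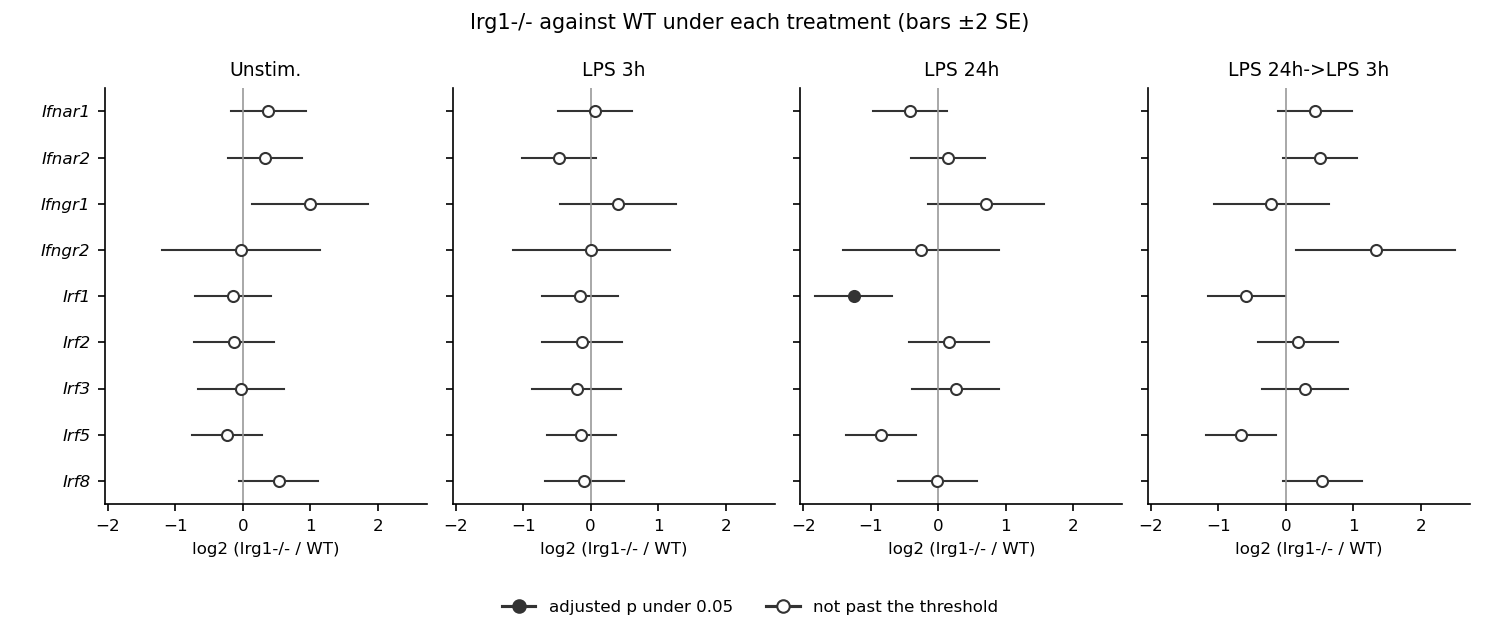
Log2 ratio of Irg1-/- to WT for the 9 members other than Ifnb1 under each treatment, with bars of 2 SE either side. The filled point, Irf1 at LPS 24h with -1.25, is the only value past an adjusted p of 0.05.

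The genotypes were also compared in their responses. For LPS 3h against Unstim. and for tolerized cells against LPS 24h, 0 of 10 members passed the test of the difference between genotypes, where 0.00842% of all genes did in each (675 and 1029 genes at an unadjusted p under 0.05, 4 and 55 by DESeq2's Wald test). For tolerized cells against LPS 3h 0 of 10 members and 0% of all genes passed edgeR's quasi-likelihood test, while 859 genes had an unadjusted p under 0.05 and 34 genes passed by DESeq2's Wald test. Among the members the smallest unadjusted p of edgeR's test was 0.019, for Ifnar2 in tolerized cells against LPS 3h (adjusted p = 0.587). For tolerized cells against LPS 24h it was 0.0371, for Ifnar1 (log2 difference 0.85, SE 0.39, adjusted p = 0.538). Nothing is read from these values, as 859 and 1029 of all genes had an unadjusted p under 0.05 in these contrasts.

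The lists below are described by counts, beside which the shares of all genes are 15.8% higher and 16.3% lower at LPS 3h in WT and 17.0% and 18.9% in Irg1-/- cells. For tolerized cells against LPS 3h they are 12.4% higher and 13.1% lower in WT and 13.1% and 14.1% in Irg1-/- cells, for tolerized cells against LPS 24h 2.46% and 1.53% and then 3.44% and 1.70%, and for LPS 24h against Unstim. 9.25% and 6.98% and then 7.31% and 6.38%. Nothing is read from a list share near these. Other interferon genes gave almost no reads. Of 10 genes on the list of other interferons, which held Ifna, Ifne, Ifnk, Ifng and Ifnl genes, none was tested, and only Ifnk had any read, with at most 8 in a library. Reads with several alignments were not assigned to genes, so copies of the closely similar Ifna family are uncertain. Among 3 further IRF genes that could be tested, Irf7, which sustains type I interferon production, rose from 10.3 ± 5.20 to 395 ± 201 normalized CPM at LPS 3h in WT (SD, n = 3; log2 fold change 5.25) and from 17.7 ± 3.17 to 309 ± 107 in Irg1-/- cells (4.13). Irf7 stood at 709 ± 256 at LPS 24h and 641 ± 168 in tolerized WT cells and 558 ± 141 and 473 ± 113 in Irg1-/- cells, and no contrast between LPS groups passed. Irf9, which encodes the DNA-binding partner of STAT proteins, rose at LPS 3h in WT (1.71) and gave 0.83 in Irg1-/- cells, which did not pass, and in tolerized Irg1-/- cells it was lower than at LPS 3h (-1.24). Irf4 was at most 2.34 normalized CPM in any library and no contrast passed.

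On the route from the LPS receptor to Ifnb1, 5 of 10 genes rose and 1 fell at LPS 3h in WT, and 5 rose and 2 fell in Irg1-/- cells. The list's median log2 fold change was 1.03 and 1.23. The LPS co-receptor Cd14 rose from 109 ± 20.8 to 988 ± 75.8 normalized CPM in WT (log2 fold change 3.18) and from 108 ± 35.2 to 826 ± 61.4 in Irg1-/- cells (2.94). The adaptors Tank and Azi2 and the kinase Tbk1 rose by 3.29, 2.22 and 1.19 in WT and by 2.66, 2.25 and 1.50 in Irg1-/- cells. Cd14 was higher in tolerized than in LPS 24h cells, by 1.63 in WT and 2.02 in Irg1-/- cells. In WT it was the only gene of the list that passed, and in Irg1-/- cells Tank and Ticam2 passed as well. Against LPS 3h, Cd14 in tolerized cells was lower by log2 fold changes of -1.13 and -0.94. Tlr4, which like Ticam2 is named outside the rule after its values were seen, fell at LPS 3h, with log2 fold changes of -1.49 in WT and -1.21 in Irg1-/- cells, and Ticam2 fell with it in Irg1-/- cells (-0.86).

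Of the 6 signalling genes under the interferon receptors, 6 rose at LPS 3h in WT and 5 in Irg1-/- cells, with list medians of 3.24 and 2.87. Stat2 rose from 66.6 ± 15.96 to 1162 ± 129 normalized CPM in WT (log2 fold change 4.13) and from 85.9 ± 33.1 to 1032 ± 130.3 in Irg1-/- cells (3.58). It was still above Unstim. at LPS 24h, by log2 fold changes of 4.32 in WT and 2.94 in Irg1-/- cells, when Ifnar2, Irf1 and Irf8 had fallen back from LPS 3h. Stat3 rose by 2.35 and 2.21 and had fallen by LPS 24h, and Jak1 rose by 0.98 and 1.16. Of 8 inhibitors of the pathway, 4 rose at LPS 3h in WT and 6 in Irg1-/- cells and 0 fell, with medians of 1.79 and 1.81. Socs3, which blocks cytokine receptor kinases, rose from 2.16 ± 0.71 to 944 ± 263 in WT and from 2.20 ± 1.47 to 1214 ± 320 in Irg1-/- cells. Usp18, which binds IFNAR2 and dampens type I signalling, rose by 6.64 and 6.69 on the log2 scale. The phosphatase Ptpn1 gave 0.58 in WT, which did not pass, and rose by 1.10 in Irg1-/- cells. Ptpn6 gave -0.77 and -0.41, neither past the threshold.

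Most interferon-stimulated targets rose with LPS. Of 10 genes, 9 rose at LPS 3h in each genotype and 9 were still above Unstim. at LPS 24h, with list medians of 8.74 and 6.04 in WT and 7.97 and 4.81 in Irg1-/- cells. The remaining target, Ciita, the activator of MHC class II genes, named after its values were seen, fell at LPS 24h in Irg1-/- cells (log2 fold change -4.31) and gave -2.82 in WT, which did not pass. Rsad2 rose from 63.7 ± 0.826 to 51080.0 ± 7820.0 normalized CPM in WT and from 134 ± 15.6 to 49000.0 ± 7227 in Irg1-/- cells. Tolerized cells had 9 of the 10 lower than LPS 3h in WT and 10 in Irg1-/- cells, with medians of -2.72 and -3.52. Between the genotypes, 3 of the 10 were lower in Irg1-/- cells at LPS 24h and 3 in tolerized cells, where 0.598% and 0.118% of all genes were called in either direction. Cxcl10, a chemokine, was 51.0 ± 24.5 against 296 ± 91.6 at LPS 24h (log2 difference -2.54) and 323 ± 89.9 against 1120.0 ± 170.2 in tolerized cells (-1.80). Rsad2 differed by -1.78 and -1.69. The third was Isg15 at LPS 24h (-1.54) and Oasl1 in tolerized cells (-2.15), both named after their values were seen. Ifit1 and Ifit2, with -0.46 and -1.65 at LPS 24h, did not pass. The Irg1-/- LPS 24h libraries were all MB_1, while WT libraries held other prefixes as well. Over all genes, the genotype calls at LPS 24h went from 71 to 12 with the label prefix as a term. They went to 3 in a fit of only the compared groups. The calls of the single targets were not examined under these settings or with a library left out.

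The proteins that act with IRFs moved in both directions. At LPS 3h 3 of 8 rose and 3 fell in WT, and 3 rose and 4 fell in Irg1-/- cells, with medians of 0.13 and -0.26. Irf2bp2, which encodes a binding partner of IRF2, fell from 540.3 ± 87.9 to 39.1 ± 10.6 normalized CPM in WT (log2 fold change -3.79) and from 469 ± 149 to 41.0 ± 8.60 in Irg1-/- cells (-3.52), at the time when Irf2 rose. At LPS 24h it was 648 ± 447 in WT and 214 ± 7.01 in Irg1-/- cells, a genotype difference of -1.60 that passed the test. The WT cultures spread widely and the Irg1-/- libraries were all MB_1. This call was not examined with the label prefix as a term or with a library left out. Irf2bpl fell by log2 fold changes of -0.80 and -0.83. Ets2 rose by 2.79 and 2.66, and it was higher in tolerized than in LPS 24h cells, by 1.04 in WT and 2.53 in Irg1-/- cells. Spi1, which encodes the IRF8 partner PU.1, gave 0.41 and 0.30 at LPS 3h, which did not pass. Among the other class II cytokine receptors, Il10ra rose by 1.44 and 1.15 and Il10rb, a subunit shared by several receptors of the family, gave 0.45 and 0.00, not past the threshold. Ifnlr1 had at most 3 reads in a library and was not tested.

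The genes whose pattern over the 8 group means was most like that of a member were found by Pearson's correlation of mean log2 CPM over 10780 genes with a mean of at least 10 counts, as a description over points that share libraries. For Ifnb1 they were Csrnp1 (0.994), Jarid2 (0.993) and Triobp (0.992). For Irf1 they were Sap30 (0.998), Cdc14a (0.993) and Fam241a (0.991), and for Irf8 Stx16 (0.988), Asb13 (0.981) and Nfatc1 (0.979). Ifnar1 was most like St7, Casp1 and Slc16a1 (0.989 to 0.992) and Ifnar2 most like Klf7 (0.986) and Lrp11 (0.984). Irf2 was nearest to Ccdc6, Ppm1k and Srgap2, Irf5 to Sik3, Prkx and Kdm1a and Irf3 to Pnisr, Gm10642 and Bhlhe41, all at 0.977 to 0.990. Ifngr1 and Ifngr2 had looser neighbours, Bphl, Idh2 and Brca2 for Ifngr1 (0.950 to 0.959) and Tmem127, Spred2 and Coq3 for Ifngr2 (0.941 to 0.967). Between members the closest were Ifnb1 and Irf1 (0.98), then Irf5 with Ifnb1 and with Irf1 (0.968 each) and Irf2 and Irf8 (0.963), and Irf3 ran opposite to Irf1 (-0.943).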

How the data were processed

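RNA was sequenced from 3 cultures in each of 8 groups (24 libraries), and the reads are of 3′ ends. The deposited values are whole-number read counts per gene, which the authors made after aligning the reads to mm10 with STAR; the counting tool, annotation and use of strand are not given in the sources used here. The table held 22165 genes and 5 summary lines, which were left out (no feature 22.1 to 33.7% of reads, not uniquely aligned 15.1 to 22.5%, ambiguous 0.254 to 0.441%). Reads on genes were 3927378 to 20430359 per library (median 11539055.5), and no molecular identifier was used, so floors cover counting error only.

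Groups came from the sample labels. Counts were scaled by TMM, filtered with filterByExpr (11878 genes kept) and fitted over all 24 libraries by edgeR (quasi-likelihood test), and p-values were adjusted by Benjamini-Hochberg over all tested genes, with a threshold of 0.05. The SE is the log2 fold change divided by the square root of F. Fitted fold changes used edgeR's default prior count. A prior count of 2 was used for log2 CPM, and so for the likeness of patterns and the differences within label prefixes. Tests ran in R 4.3.3 (DESeq2 1.42.0, limma 3.58.1 and edgeR 4.0.16), and figures were drawn with matplotlib 3.10.9 and pandas 2.3.3 under Python 3.11.15. The fit was tested on simulated data. Alternatives were DESeq2 size factors and Wald test, no filter, only the compared groups, the culture number as a block, the label prefix as a term, and leaving out each library. P-values measure the spread between cultures, which may be technical where cultures shared a mouse.

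The members were named by the rule given above, and from each pathway list the 4 genes of highest mean level were named, plus the 3 genes most like each member. Some genes that this rule names are not reported here. The members and lists were chosen with earlier results of these data known.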

Additional observations from a re-analysis of the deposited data

How the results depend on the processing

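There were 170 member comparisons, of which 102 passed the threshold under no setting and 2 had no estimate. Of the remaining 66, which passed under at least 1 setting, counts scaled by DESeq2 size factors left 64 on the same side of the threshold and ended 2 calls. DESeq2's Wald test left 61, made 3 calls and ended 1, no filter on low counts left 52, made 9 and ended 5, and only the compared groups left 55, made 3 and ended 8. The label prefix as a term left 58, ended 7 calls and turned 1. Leaving out 1 library left 347 of these values, ended 45 calls, made 3 and turned 1. The cause of these changes was not tested, except that fits of only the compared groups, and fits with a library left out, use fewer samples. Bounds on Ifnb1 with an LPS library left out were chosen after seeing the data. Depth limits Ifnb1, which held 0 to 42 reads per library outside LPS 3h.

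Counts of genes called moved as follows, with the reported count first in each case. For WT tolerized against LPS 24h, 474 genes became 766 by DESeq2's Wald test, 749 without a filter and 146 with only the compared groups, and 1 member became 2 without a filter (Ifngr2 beside Irf8) and 0 with only the compared groups. For WT LPS 24h against Unstim., 5 members became 3 with only the compared groups, while the count of all genes stayed within 1.5-fold of 1928. With the label prefix as a term, Irg1-/- LPS 3h against Unstim. went from 4260 to 2361 genes, LPS 24h against LPS 3h from 4162 to 1771, tolerized against LPS 3h from 3233 to 1407, and LPS 24h against Unstim. from 2 members to 1. In the last of these contrasts the count of all genes stayed within 1.5-fold of 1626. For Irg1-/- tolerized against LPS 24h, 0 members became 1 by the Wald test, 1 without a filter and 1 with only the compared groups, where 611 genes became 1080. By the Wald test and without a filter the count of all genes stayed within 1.5-fold of 611.

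Genotype counts moved too. In Unstim. cells 5 genes became 31 (Wald), 39 (no filter) and 0 (only the compared groups). At LPS 3h 1 became 8 (Wald), 32 (no filter) and 3 (label prefix). At LPS 24h 71 became 215 (Wald), 246 (no filter), 3 (only the compared groups) and 12 (label prefix), and 1 member became 2, 2, 0 and 0. In tolerized cells 14 became 106, 133, 5 and 6 under the same settings, and 0 members became 1 without a filter (Ifngr2). For the difference between genotypes, LPS 3h against Unstim. went from 1 to 4 (Wald) and 26 (no filter), tolerized against LPS 3h from 0 to 34 (Wald), 68 (no filter) and 1 (label prefix), and tolerized against LPS 24h from 1 to 0 (DESeq2 size factors), 55 (Wald), 170 (no filter), 0 (only the compared groups) and 7 (label prefix).

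Ifngr2 in Irg1-/- LPS 24h against LPS 3h turned from 0.89 to -0.76 with the label prefix as a term, and ranged from -0.67 (without culture 3 of LPS 24h) to 1.43 with a library left out. Over all single libraries left out, counts ranged from 3 to 5 members for WT LPS 24h against Unstim., 268 to 510 genes for WT tolerized against LPS 24h, 0 to 3 members for Irg1-/- LPS 24h against Unstim., 5 to 7 members for Irg1-/- LPS 24h against LPS 3h and 379 to 434 genes for Irg1-/- tolerized against LPS 24h. Where only members are given, the count of all genes stayed within 1.5-fold of 1928, 1626 and 4162, in that order. Genotype counts ranged from 0 to 6 (Unstim.), 1 to 6 (LPS 3h), 9 to 153 with 0 to 1 members (LPS 24h) and 4 to 32 (tolerized), and those of the 3 differences between genotypes, in the order above, from 1 to 4, 0 to 12 and 0 to 23.

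Cultures share numbers across groups, but deviations of same-numbered cultures correlated by only -0.067 to 0.287 between genotypes and -0.102 to 0.337 within them, so the numbers were not taken as pairs. With the number as a replicate block, 65 member results kept their side of the threshold and Ifngr1 in Irg1-/- LPS 3h against Unstim. lost its call (-1.13, adjusted p = 0.0504). Under this block the genotype count in Unstim. cells was 3, and the differences between genotypes gave 1 gene for tolerized against LPS 3h and 0 for tolerized against LPS 24h.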
